A study of Mus musculus with 6 samples.

Results

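Glycolysis and the response to low oxygen were followed through 35 genes in sorted mouse microglia: the enzymes that turn glucose into lactate, the transporters that carry both, the hypoxia-inducible factors (HIF) with the hydroxylases that control them, and well-known HIF targets. The members were fixed by name. Every probe whose transcript accession belonged to a listed gene was taken, which gave 64 of the 56605 probes on the array and at least 1 probe for each of the 35 genes, of 23462 named genes tested. Microglia, the resident macrophages of the brain, were sorted as CD45low CD11b+ Cx3cr1+ cells from 3-month-old mice. The control group, Bhlhe41 dTomato-Cre/+ (B41HET, 3 samples), carried the dTomato-Cre cassette on 1 allele, and the Bhlhe41 dTomato-Cre/dTomato-Cre group (B41KO, 3 samples) carried it on both. The cassette sits upstream of the start codon, places dTomato and Cre under the Bhlhe41 promoter and ends translation of Bhlhe41. The controls were therefore not wildtype: all 6 samples made dTomato and Cre, and the control retained 1 intact allele. Each sample was pooled from several mice per the study's methods, whereas the labels speak of 3 mice per genotype, so each value is that of a sample and not of a mouse.

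In glycolysis, glucose enters through facilitative transporters, is phosphorylated by hexokinase, split by aldolase and oxidized to pyruvate, which is either passed to the mitochondria or reduced to lactate and exported. When oxygen is scarce, prolyl hydroxylases of the Egln family no longer mark HIF1α and HIF2α for degradation, and the stabilized factors raise transcription of most glycolytic genes and of Vegfa, Bnip3, Car9 and others. Bhlhe41 is a transcriptional repressor of the basic helix-loop-helix family that binds E-boxes, is itself induced by hypoxia in many cells, and has been described as a partner of HIF1α that promotes its degradation. Whether loss of Bhlhe41 protein moved these transcripts in resting microglia is the question of the comparison below.

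Expression was read on 1-color arrays, where each probe gives 1 fluorescence intensity per sample. Log2 intensities were quantile normalized and each probe was fitted with limma, its p adjusted by the Benjamini-Hochberg method for all probes tested. To be called, a probe had to reach an adjusted p no higher than 0.05 and to differ by at least 0.5 on the log2 scale in either direction. Both limits are those of the published methods. SE is the standard error of a log2 fold change from that fit. Signed values are B41KO minus B41HET on the log2 scale, and the probe with the highest mean signal stood for a gene that had several. Signals of different probes are not compared, since probes differ in brightness for the same amount of RNA.

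All 6 arrays lay on 1 slide, and between 70.1% and 75.5% of probes were well above background, with 0 saturated spots. The 12 microglia markers checked, among them P2ry12, Tmem119 and Sall1, were well above background on all 6 arrays, and 1 of them, Fcrls, was called lower, by a log2 fold change of -0.76. The Bhlhe41 transcript was not lower in the samples labelled B41KO (log2 fold change of 0.38, adjusted p = 0.330, and of 0.33, adjusted p = 0.203, on its 2 probes), so these probes say nothing on whether the labels are right. Of the markers of other cell types, 8 of 12 neutrophil and monocyte genes, 4 of 12 border macrophage genes, 2 of 12 endothelial genes, 1 of 12 B cell genes and 1 of 12 oligodendrocyte genes were called lower in samples labelled B41KO, 3 of 11 erythroid genes were called higher, and 0 of 12 astrocyte and 0 of 12 neuron genes were called. In a bulk sample, fewer cells of a type and less RNA per cell cannot be told apart.

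The pathway did not move as a block. Of the 35 genes, 2 were called higher in the samples labelled B41KO, Pfkm (the muscle type of phosphofructokinase) and Slc16a1 (the lactate and pyruvate carrier MCT1), and 1 was called lower, Slc2a3 (the glucose transporter GLUT3). This is 8.57% of the members, where 5.45% of all genes tested were called (1.44% higher, 4.01% lower), a share near the background. The median log2 fold change over the 35 members was 0.01, against 0.0067 over all 23462 genes, with 18 members above 0 and 17 below. The median of the members in a single sample, set against the B41HET mean, lay between -0.07 and 0.05 in the B41HET samples and between -0.05 and 0.01 in the B41KO samples, so the genotypes overlapped. In 21 of the 35 genes (60%) the 3 samples of 1 genotype lay above all 3 of the other, 11 with B41KO higher and 10 with B41HET higher. The same held for 32.2% of all genes (14.2% with B41KO higher, 18.0% with B41HET higher). Among genes that, like 33 of the 35 members, were well above background on all 6 arrays, it held for 39.0%, and 6.49% of them were called. A further 5 genes passed the adjusted p but not the fold threshold: Gpi1, Aldoa, Pgam1 and Eno1, all lower, and Bnip3, which was higher. Conversely, 3 genes passed the fold threshold but not the adjusted p: Hif1a and Egln3, both higher, and Epas1, which was lower. The Epas1 value (log2 fold change of -0.53, adjusted p = 0.424) comes from signals too close to background to be measured.

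**Figure D1:**
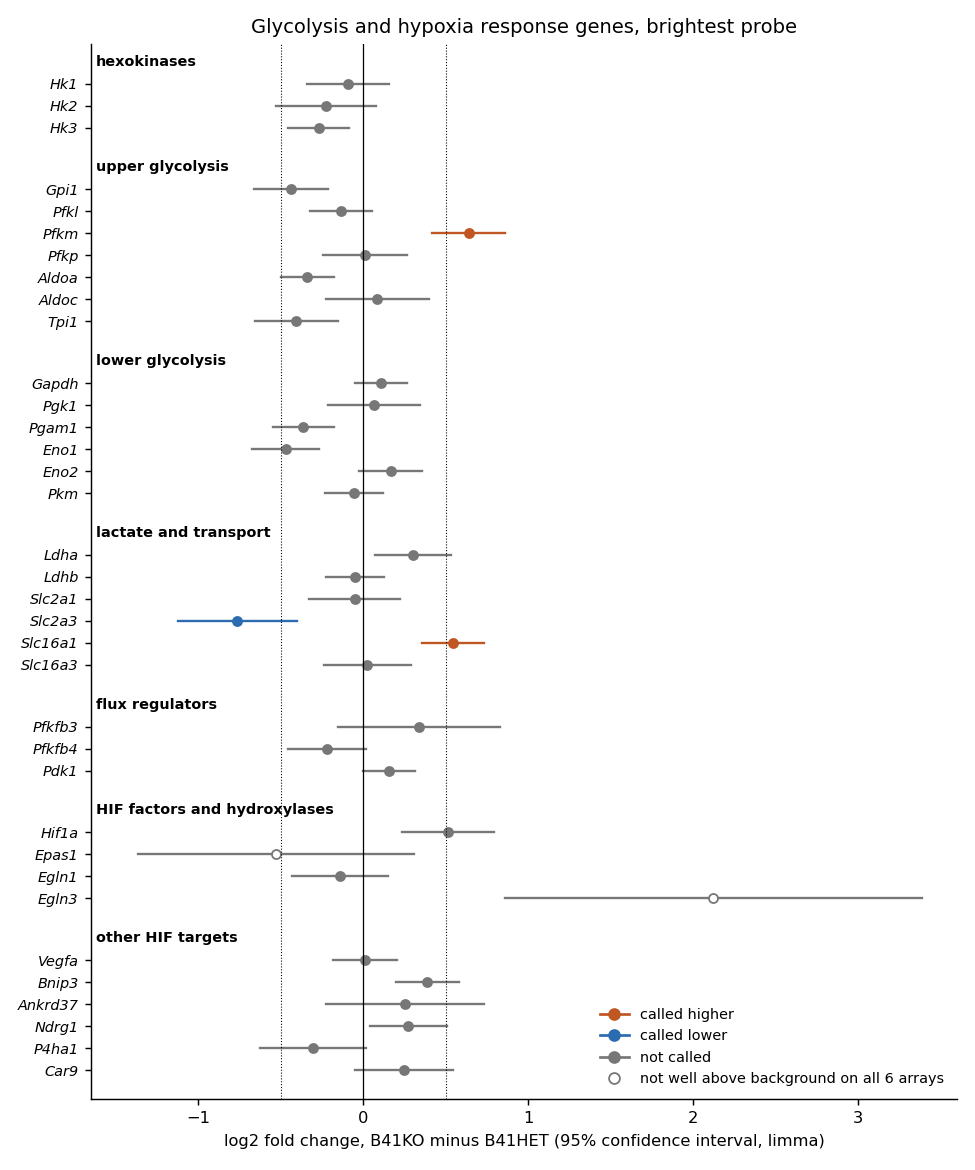
Log2 fold change (B41KO minus B41HET) of the brightest probe of each of the 35 genes, grouped by role, with 95% confidence intervals from limma on 3 samples per genotype; dotted lines mark the fold threshold of 0.5. Pfkm and Slc16a1 are called higher and Slc2a3 lower, and the open circles mark Epas1 and Egln3, which were not well above background on all 6 arrays.

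The promoters of the members were read because Bhlhe41 binds the E-box CACGTG, and because HIF binds a core of ACGTG or GCGTG. RefSeq promoter windows on GRCm38.p6, from 250 bases before to 50 bases after a listed transcription start, were at hand for 32 of the 35 members (46 windows). Epas1, Slc2a3 and Ndrg1 had no entry. CACGTG, which reads the same on both strands, was found for 6 of the 32 genes (18.8%), where 8.09% of all 27025 genes in the table hold it. These 6 were Pfkm, Slc16a1, Hif1a, Bnip3, Pfkfb3 and Ldha. The stretches around their matches are printed 5′ to 3′ on the strand of the gene, because these 6 members shared a direction of change, with CACGTG in capitals.
Pfkm, chr15:98092408-98092503, plus strand, 136 bases upstream of the first of 4 listed starts: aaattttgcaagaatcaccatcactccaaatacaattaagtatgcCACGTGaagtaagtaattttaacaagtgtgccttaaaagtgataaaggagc
Slc16a1, chr3:104638419-104638514, plus strand, 200 bases upstream of the start: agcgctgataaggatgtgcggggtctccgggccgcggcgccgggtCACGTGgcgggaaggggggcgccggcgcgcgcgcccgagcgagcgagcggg
Hif1a, chr12:73907687-73907782, plus strand, 135 bases upstream of the start: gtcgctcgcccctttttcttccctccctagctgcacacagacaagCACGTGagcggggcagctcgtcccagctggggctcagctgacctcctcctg
Bnip3, chr7:138909564-138909659, minus strand, 108 bases upstream of the start: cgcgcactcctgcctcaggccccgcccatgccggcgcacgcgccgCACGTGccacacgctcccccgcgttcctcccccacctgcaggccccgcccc
Pfkfb3, chr2:11502093-11502188, minus strand, 53 bases upstream of the second of 2 listed starts: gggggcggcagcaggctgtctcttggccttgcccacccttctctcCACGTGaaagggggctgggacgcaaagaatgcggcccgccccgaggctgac
Ldha, chr7:46845614-46845806, plus strand, with 2 matches, 145 and 48 bases upstream of the first of 2 listed starts: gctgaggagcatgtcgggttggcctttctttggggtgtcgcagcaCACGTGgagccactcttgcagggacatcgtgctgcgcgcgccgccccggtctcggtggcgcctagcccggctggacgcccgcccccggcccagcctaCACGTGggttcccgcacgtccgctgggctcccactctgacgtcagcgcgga

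In all 6 genes with the E-box match the samples labelled B41KO lay above all B41HET samples on the brightest probe. The log2 fold changes ran from 0.30 (Ldha) to 0.64 (Pfkm), with a median of 0.45. On the second probes of Ldha (0.17) and Pfkfb3 (0.18) the samples overlapped. The 6 genes include both members called higher. Of the 26 members with a window but no match, 11 were above 0, 0 were called, and in 4 B41KO lay above all B41HET samples while in 9 it lay below, with a median of -0.05. Over all genes tested with a window, 49.2% of the 1700 with the match were above 0, against 51.2% of the 16790 without it, and 1.53% against 1.40% were called higher. B41KO lay above all B41HET samples in 15.8% and below them in 21.6% of genes with the match, against 13.9% and 18.1% of genes without it. Among the 76 other genes of the pathway lists described further on that had a window, 13 held the match, and 5 of these 13 were above 0 with a median of -0.20 and 0 called. In 1 of the 13 B41KO lay above all B41HET samples, and in 4 below. A match says only that these letters lie in the window, and binding was not measured here.

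**Figure D2:**
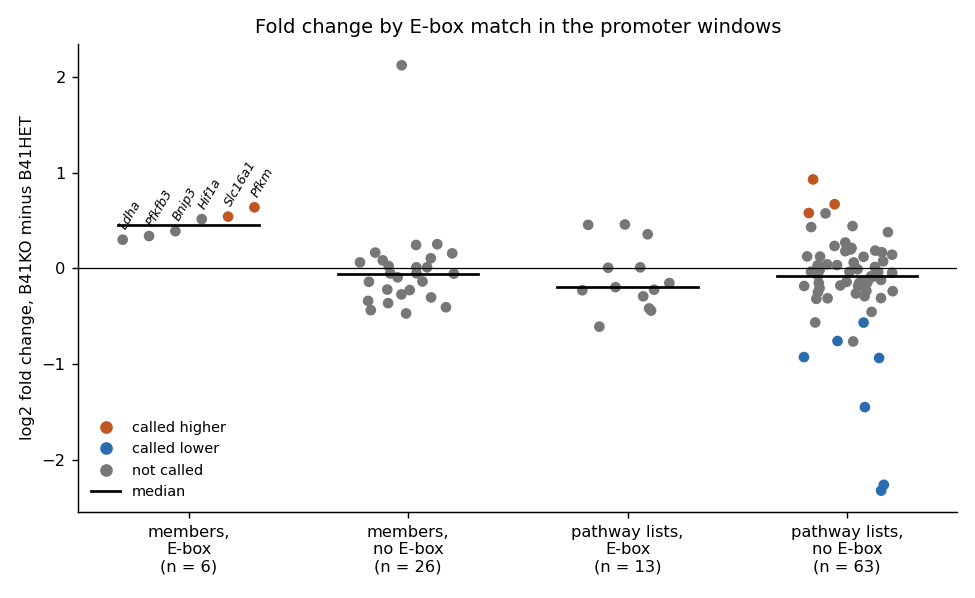
Log2 fold change (B41KO minus B41HET, brightest probe) of genes with and without an E-box match in their promoter windows, for the members (left pair) and for the other genes of the pathway lists (right pair), 1 point per gene with the median as a bar. The 6 members with a match lie between 0.30 and 0.64, whereas the 13 other pathway genes with a match scatter around a median of -0.20.

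The core of the hypoxia response element, ACGTG or GCGTG on either strand, was common in the members. It was found for 29 of the 32 genes (90.6%), where 46.7% of all genes in the table hold it, as do 57 of the 76 other pathway genes with a window. The member genes also held more CpG pairs per window, with a median of 20.5 against 13 over all genes tested with a window. CACGTG itself contains ACGTG, but the same 29 genes held a core match outside any E-box too. The members without it were Gpi1, Tpi1 and Eno2. With so many members holding the core it does not divide them: 16 of the 29 were above 0 and their median was 0.01. Across all genes with a window, 48.2% of those holding the core were above 0, against 54.1% of those without.

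The hexokinases commit glucose to metabolism by phosphorylating it, and 0 of the 3 were called. Hk3, the isoform of myeloid cells, gave log2 signals of 11.02, 10.91 and 10.90 in the B41HET samples and of 10.69, 10.71 and 10.61 in the B41KO samples. The genotypes did not overlap, with a log2 fold change of -0.27 (SE 0.07, adjusted p = 0.0952). The second Hk3 probe differed by -0.08 with overlapping samples. Hk2, the isoform most responsive to HIF, differed by -0.23 (95% confidence interval -0.53 to 0.08), and Hk1, the broadly expressed isoform, by -0.09 (-0.34 to 0.15), both within the spread of the samples.

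Phosphofructokinase, the main control point of glycolysis, has 3 isoforms, of which Pfkm was called and Pfkl and Pfkp were not. Pfkm gave log2 signals of 7.26, 7.24 and 7.14 in the B41HET samples and of 7.94, 7.90 and 7.72 in the B41KO samples. Every sample labelled B41KO was higher, by at least 0.46, and the log2 fold change was 0.64 (SE 0.09, adjusted p = 0.0194 from limma), or 1.56-fold. Its promoter stretch is the first of those printed above. The liver isoform Pfkl, which gave log2 signals of 12.28 ± 0.06 (SD, n = 3) and 12.14 ± 0.08 (SD, n = 3) in B41HET and B41KO, differed by -0.14 (adjusted p = 0.361). The platelet isoform Pfkp differed by 0.01 (95% confidence interval -0.24 to 0.26) by its brightest probe. A dimmer Pfkp probe, designed on another transcript, gave -0.51 (adjusted p = 0.0792). Differences between the isoforms were not tested against each other.

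Among the remaining enzymes of upper glycolysis, the isomerase Gpi1, the aldolase Aldoa and the triosephosphate isomerase Tpi1 were read lower in the samples labelled B41KO by their brightest probes. Gpi1 gave 13.480, 13.446 and 13.238 in B41HET and 12.927, 12.999 and 12.928 in B41KO, a log2 fold change of -0.44 (SE 0.09, adjusted p = 0.0496). Aldoa, the aldolase of most tissues, has 1 probe, which gave 13.04 ± 0.05 (SD, n = 3) in B41HET and 12.70 ± 0.013 (SD, n = 3) in B41KO, with the highest B41KO sample 0.29 under the lowest B41HET sample. Its log2 fold change was -0.34 (SE 0.07, adjusted p = 0.0424). Tpi1 gave 11.84, 11.78 and 11.54 in B41HET and 11.26, 11.34 and 11.35 in B41KO, a difference of -0.41 that missed the adjusted p (0.0772). These 3 differences stayed under the fold threshold. Aldoc, the aldolase known from astrocytes and neurons, differed by 0.08 on 1 probe and -0.10 on the other.

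The probes of 1 gene did not always agree on the direction. Of the 19 members with several probes, 9 had probes on both sides of 0. This count includes Hk1, whose probe above 0 was well above background on 1 array only. In Tpi1, whose 3 probes name the same transcript, the second gave -0.22 and the dimmest gave 9.69, 9.85 and 9.54 in B41HET and 10.18, 10.22 and 10.16 in B41KO, an increase of 0.49 (adjusted p = 0.0462) opposite to the brightest. The samples separated fully by genotype on all 3 Tpi1 probes, so the direction for this gene depends on the probe. For Gpi1 the other 2 probes gave -0.20 and 0.18 with overlapping samples, and the reading of -0.44 rests on the brightest probe alone. Several of these genes, Gapdh above all, have processed pseudogenes with near-identical sequence, and the probe sequences were not used here to tell whether a probe reads them as well.

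**Figure D3:**
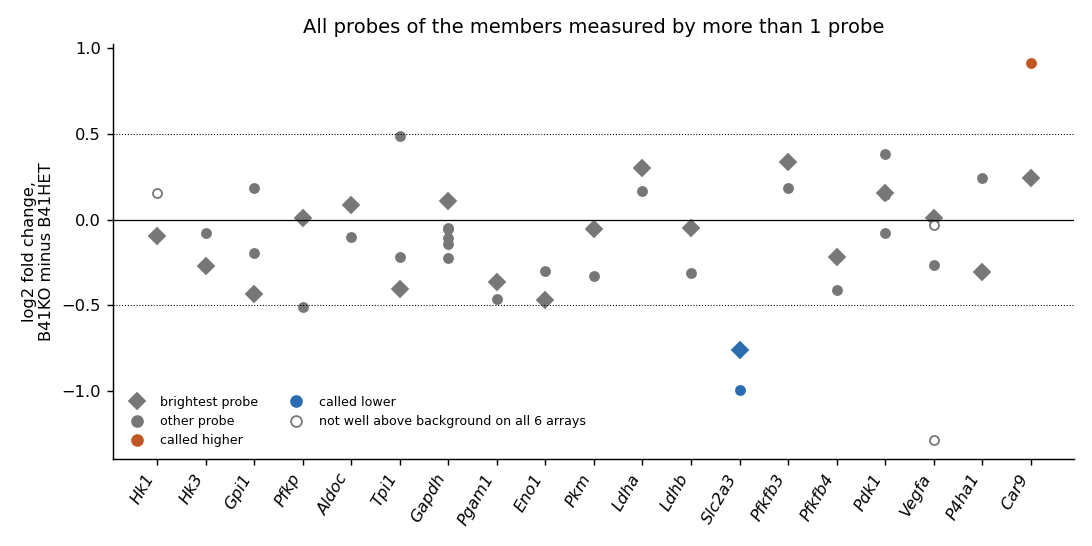
Log2 fold change (B41KO minus B41HET) of every probe of the 19 genes measured by more than 1 probe; diamonds mark the brightest probe of a gene, circles its other probes, and open symbols probes not well above background on all 6 arrays. The 2 Slc2a3 probes are both called lower, the 3 Tpi1 probes lie on both sides of 0, and 1 of the 2 Car9 probes is called higher.

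In lower glycolysis, where the carbon is oxidized to pyruvate and ATP is regained, 0 of the 6 genes were called. Eno1, the enolase of non-neuronal cells, gave 10.91, 11.09 and 11.02 in B41HET and 10.47, 10.61 and 10.53 in B41KO. The log2 fold change was -0.47 (SE 0.08, adjusted p = 0.0333), just short of the fold threshold, and the second probe gave -0.30 (adjusted p = 0.199). The mutase Pgam1 gave 8.99, 8.92 and 8.84 in B41HET and 8.59, 8.57 and 8.50 in B41KO, a difference of -0.36 (SE 0.07, adjusted p = 0.0492), and its second probe gave -0.46 (adjusted p = 0.0374). In both genes both probes separated the genotypes without overlap in the same direction.

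The other enzymes of lower glycolysis were closer to 0. Gapdh, often used as a reference gene, was read by 6 probes with differences from -0.23 to 0.11, of which 5 were below 0 and 0 passed the adjusted p (0.126 to 0.798). Pkm, the pyruvate kinase of most tissues, gave -0.05 on the brighter and -0.33 (adjusted p = 0.0695) on the dimmer probe. Pgk1, a phosphoglycerate kinase on the X chromosome, gave 0.06 (95% confidence interval -0.22 to 0.34) and the neuronal enolase Eno2 gave 0.16 (-0.03 to 0.36). Both calls and absence of calls here are relative to quantile normalization, which sets all arrays to the same distribution.

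The transporters held the other 2 called members, and they went opposite ways. Slc2a3 encodes GLUT3, a glucose transporter of high affinity best known from neurons and also found in leukocytes. It gave log2 signals of 8.15, 7.89 and 7.81 in B41HET and of 7.38, 6.97 and 7.20 in B41KO. The highest B41KO sample lay 0.43 under the lowest B41HET sample, and the log2 fold change was -0.76 (SE 0.15, adjusted p = 0.0406), or 1.70-fold lower. The second probe gave 5.26, 5.15 and 5.35 in B41HET and 4.06, 4.47 and 4.24 in B41KO, a log2 fold change of -0.998 (SE 0.13, adjusted p = 0.0146). Slc2a3 was the only member called on more than 1 probe. Of the 12 neutrophil and monocyte markers, 8 were called lower in the same samples, Ltf, Ngp and S100a9 among them. Mmp8 (-0.61), Ccr2 (-0.30) and Elane (-0.04) were not called. Mpo (0.39) was not called either, with B41KO above all B41HET samples. The summed signal of the 12 markers was 30630 to 34500 in B41HET and 6179 to 6564 in B41KO, and all 12 were well above background on all 6 arrays. The part of these cells in the Slc2a3 and Hk3 values was not tested.

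Slc16a1 encodes MCT1, which moves lactate and pyruvate across the membrane together with protons. It gave 6.42, 6.31 and 6.50 in B41HET and 6.96, 6.93 and 6.97 in B41KO, so that all 3 samples labelled B41KO lay at least 0.43 above the B41HET samples. The log2 fold change was 0.54 (SE 0.08, adjusted p = 0.0196), or 1.45-fold. Of the 11 erythroid markers, 3 were called higher in the same samples, Hbb-bt (1.36), Hbb-b1 (0.69) and Alas2 (0.55), and 8 were not called. The part of erythroid cells in the Slc16a1 and Pfkm values was not tested. Slc16a3, the export carrier MCT4 and a HIF target, differed by 0.02 (95% confidence interval -0.24 to 0.29), and Slc2a1, the transporter GLUT1 and likewise a HIF target, by -0.05 (-0.33 to 0.22). In the endothelial list, whose cells are rich in GLUT1, 2 of 12 markers were called lower. These were Ly6c1 (mean log2 signal of 9.56 in B41HET and 7.77 in B41KO) and Pecam1 (8.37 and 6.68). The summed signal was 1382 to 1455 in B41HET and 635 to 716 in B41KO, a fall that rests on these 2 markers. Cdh5, Tek, Flt1 and Itm2a were not well above background on any array. The other detected endothelial markers were not called. Their log2 fold changes were -0.13 for Cldn5, -0.0093 for Kdr, 0.04 for Slco1a4, 0.13 for Egfl7 and 0.33 for Vwf. Esam, well above background on 1 array of each genotype, gave 0.34. Of the 12 markers 5 were above 0, the undetected Cdh5 among them.

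Lactate dehydrogenase interconverts pyruvate and lactate. Ldha, the isoform that HIF induces, gave 8.85, 8.60 and 8.72 in B41HET and 9.07, 9.06 and 8.94 in B41KO. The genotypes did not overlap, but the increase of 0.30 (SE 0.09, adjusted p = 0.129) was not called, and the second probe gave 0.17 with overlapping samples. Ldhb, the isoform of oxidative tissues, gave -0.05 on its brighter probe and -0.31 (adjusted p = 0.0836) on the dimmer one.

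Of the 3 regulators of glycolytic flux 0 were called, although in each the brightest probe separated the genotypes, with B41KO higher for Pfkfb3 and Pdk1 and lower for Pfkfb4. Pfkfb3 makes fructose 2,6-bisphosphate, the activator of phosphofructokinase, and gave 9.14, 9.23 and 8.52 in B41HET and 9.34, 9.28 and 9.28 in B41KO. B41HET replicate 3 was low and widened the spread, and the log2 fold change was 0.34 (95% confidence interval -0.15 to 0.83, adjusted p = 0.382), or 0.12 without that sample. The second Pfkfb3 probe gave 0.18 with overlapping samples (adjusted p = 0.440). The related Pfkfb4 gave -0.22 (adjusted p = 0.244) on the brightest probe and -0.41 (adjusted p = 0.141), also without overlap, on the second. Pdk1, the kinase that shuts pyruvate dehydrogenase under hypoxia, was read by 4 probes with differences of 0.16, 0.14, 0.39 and -0.08 and adjusted p-values from 0.0905 to 0.722.

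**Figure D4:**
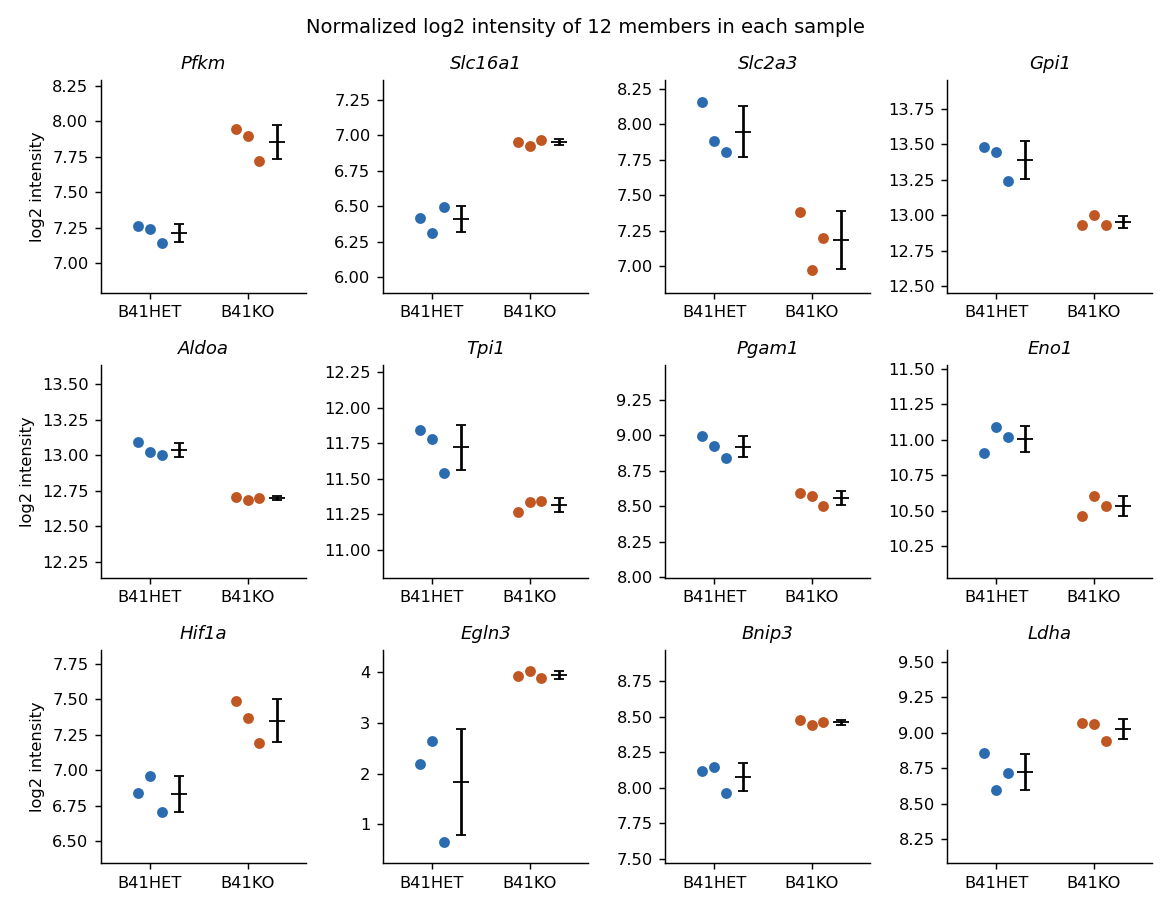
Normalized log2 intensity of the brightest probe of 12 members in each of the 3 B41HET and 3 B41KO samples, with the mean and SD of each genotype beside the points; each panel has its own axis. In all 12 panels the 2 genotypes do not overlap, which held for 21 of the 35 members and for 32.2% of all genes. Egln3 shows the widest spread in B41HET.

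The HIF factors themselves are controlled chiefly at the level of the protein, which these arrays do not measure. The Hif1a transcript gave 6.84, 6.96 and 6.71 in B41HET and 7.49, 7.37 and 7.19 in B41KO. All 3 samples labelled B41KO were higher, with a log2 fold change of 0.51 (SE 0.11, 95% confidence interval 0.23 to 0.79), or 1.43-fold, and the adjusted p of 0.0577 missed the threshold. The adjusted p passed with dim probes left out, so that fewer tests were adjusted for (0.0305), and with a trended and robust variance (0.0302). Without 1 sample it lay between 0.0731 and 0.150, with slide row blocked it was 0.154, and with normexp background correction the log2 fold change was 0.34 (adjusted p = 0.0224), under the fold threshold. Epas1, which encodes HIF2α, stayed too close to background on every array to be measured, at 0.77 to 2.11.

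The hydroxylases that mark HIF for degradation differed in their detection. Egln3, the member of the family most strongly induced by HIF, was not well above background in any B41HET sample (2.19, 2.63 and 0.65) and was well above background in all 3 B41KO samples (3.93, 4.03 and 3.88). Against the lowest signals well above background on the B41HET arrays, this is at least 2.18-fold higher. The fitted log2 fold change of 2.12 (SE 0.51, adjusted p = 0.0713) was not called. Without 1 sample it lay between 1.53 and 2.53, with adjusted p-values from 0.0329 (without B41HET replicate 3) to 0.176, and with slide row blocked the adjusted p was 0.309. It passed both thresholds with the processed values of the authors (1.99, adjusted p = 0.0472) and with a trended and robust variance (2.12, adjusted p = 0.0484). With normexp background correction the difference was 0.31 on the log2 scale (adjusted p = 0.0194). Egln1, the main oxygen sensor of the family, was detected in all samples and differed by -0.14 (95% confidence interval -0.43 to 0.15).

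Of the 6 further HIF targets among the members, 0 were called by their brightest probe, 5 were above 0 and the median log2 fold change was 0.25. Bnip3, which directs mitochondria to autophagy, gave 8.12, 8.15 and 7.96 in B41HET and 8.48, 8.45 and 8.46 in B41KO, a log2 fold change of 0.39 (SE 0.08, adjusted p = 0.0465) under the fold threshold and without overlap. Ndrg1, a gene of the stress response, gave 4.53, 4.55 and 4.30 in B41HET and 4.74, 4.76 and 4.70 in B41KO, a difference of 0.27 (adjusted p = 0.158). Ankrd37 differed by 0.25 with overlapping samples. P4ha1, a subunit of the collagen prolyl hydroxylase, gave -0.30 and 0.24 on its 2 probes (adjusted p = 0.238 and 0.227), each without overlap, so that no direction can be given.

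Car9 and Vegfa also turned on the probe. Car9 encodes carbonic anhydrase 9, a HIF target often taken as a marker of hypoxia. Its brighter probe gave 7.94, 8.16 and 8.35 in B41HET and 8.33, 8.42 and 8.43 in B41KO, a log2 fold change of 0.24 (adjusted p = 0.299), whereas its dimmer probe gave 5.11, 5.16 and 5.18 in B41HET and 6.09, 6.08 and 6.04 in B41KO. The latter increase of 0.92 (SE 0.07, adjusted p = 0.00374) was the call with the lowest adjusted p among the 64 member probes, of which 5 were called (7.81%, against 5.07% of all probes tested). These were 3 higher and 2 lower, where 1.72% and 3.34% of all probes were called higher and lower, and 38 of the 64 (59.4%) separated the genotypes without overlap, against 29.7% of all probes. Both probes name the same transcript, and averaged they gave 0.58 (adjusted p = 0.0243), past both thresholds. Vegfa, the angiogenic growth factor, differed by 0.01 (95% confidence interval -0.18 to 0.21) on its brightest probe and by -0.27 on the second, which separated the genotypes (adjusted p = 0.197). Of its 2 dimmest probes, 1 was well above background on all 3 B41HET arrays and on 0 B41KO arrays, at least 1.26-fold lower in B41KO (adjusted p = 0.0897), and the other was near background in both genotypes.

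The other genes of these pathways, taken from 5 fixed lists without the members, comprised 92 genes with a tested probe, of which 5 (5.43%) were called higher and 8 (8.70%) lower, against 1.44% and 4.01% of all genes. Among 21 other glycolytic enzymes Eno3, the muscle enolase, was called higher by 0.93 on the log2 scale (adjusted p = 0.00919). Adpgk, the ADP-dependent glucokinase, was called lower with -0.94 (adjusted p = 0.0103). Hkdc1, a hexokinase of low abundance, was well above background in the B41HET samples only and at least 1.58-fold lower in B41KO. Of 8 genes of the pentose phosphate pathway, which makes NADPH, 2 were called lower: G6pdx, its first enzyme, with -0.76 (adjusted p = 0.0202) and Rpia with -0.57 (adjusted p = 0.0217). Of 13 genes for the entry of pyruvate into mitochondrial metabolism and its control, 0 were called by limma. An unadjusted p under 0.05 was found for 2 of them, as for 5873 of all 23462 genes. These 2 were Pdk2 (-0.61) and Pdk3 (-0.31), relatives of Pdk1.

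Among 16 regulators of the HIF pathway 2 were called, both lower. Arnt2, a partner subunit of the HIF factors, fell by 1.45 on the log2 scale (adjusted p = 0.00305), and Siah2, a ubiquitin ligase that acts on the Egln hydroxylases, fell by 1.02 (adjusted p = 0.0153). Of 34 further HIF targets, 4 were called higher and 2 lower. The higher ones were Lox (0.96) and Loxl2 (0.66), which cross-link collagen, Narf (0.67) and Ddit4 (0.58), an inhibitor of mTORC1. The lower ones were the chemokine receptor Cxcr4 (-2.26, adjusted p = 0.000675) and the collagen lysyl hydroxylase Plod1 (-0.93). The median over the 34 targets was 0.06, and they did not share a direction.

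**Figure D5:**
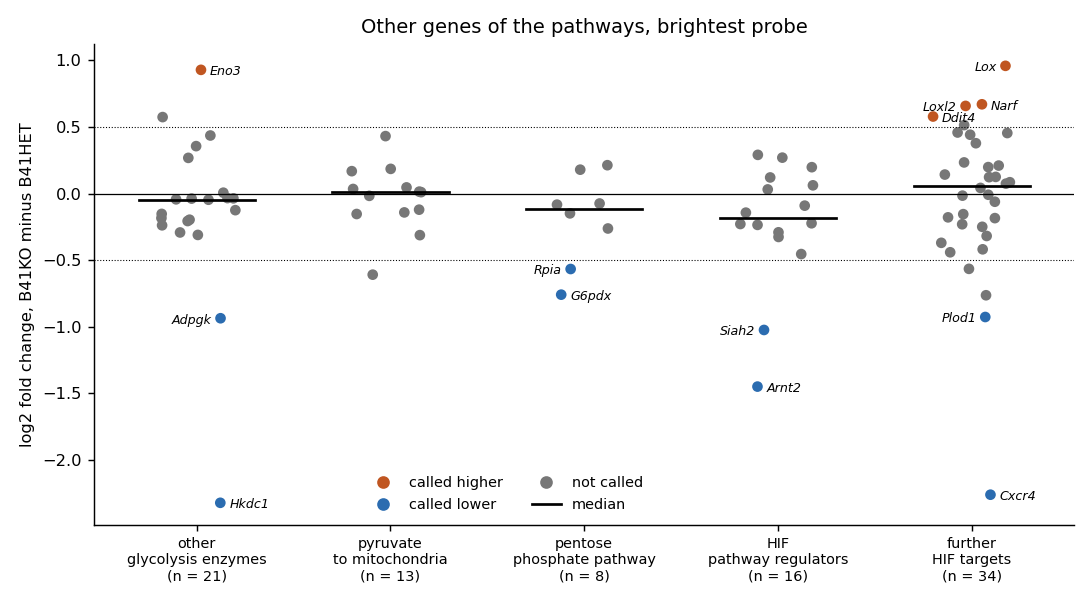
Log2 fold change (B41KO minus B41HET, brightest probe) of the other genes of the pathways in 5 lists, 1 point per gene, with the median of each list as a bar and dotted lines at the fold threshold of 0.5. The list medians lie between -0.18 and 0.06, and the 13 called genes are named.

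The 3 calls among the members were fragile to the loss of a sample. All 3 also ended with normexp background correction and with the replicate number as a block. Slc2a3 lost its call when any 1 of the 6 samples was left out (adjusted p from 0.0656 to 0.117), Pfkm when any but B41KO replicate 3 was left out, and Slc16a1 when any but B41HET replicate 3 was left out. Each of the 3 kept its direction in every refit without 1 sample, which the absence of overlap fixed in advance. The values lay between -0.86 and -0.66 for Slc2a3, 0.59 and 0.70 for Pfkm, and 0.49 and 0.58 for Slc16a1.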

How the data were processed

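Total RNA of microglia from 3 B41HET and 3 B41KO samples was hybridized in 1 color (Cy3) to SurePrint G3 Mouse arrays. For every array the authors deposited the output of the scanner software (Feature Extraction 11.5.1.1), whose intensities were background-subtracted and detrended within the array but not normalized between arrays. They also deposited processed log2 values, a scale read from the values because none is named. Its columns had equal medians and ranked the probes as the arrays did, so it served as an alternative.

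From the scanner intensities, 59305 of 62976 spots remained without controls. Between 95 and 136 spots of an array had been marked as outliers and were dropped, log2 values were quantile normalized, and the spots of each of 56605 probes were averaged. Probes with values in at least 2 samples per genotype (56601) were fitted with genotype as the only term in limma 3.58.1 (R 4.3.3), with Benjamini-Hochberg adjustment over all of them. Quantile normalization, limma and both thresholds follow the study's methods. Probes were named by transcript accession, without version, through RefSeq genes on GRCm38.p6, which named 33767. The array design names mm9, so no positions of probes are given. A probe counted as not measured in a genotype where it was not well above background on any of its arrays, and a fold was then given as a bound against the lowest signal well above background on each array. The model was tested on simulated data. Plots were made in Python 3.11.15 (matplotlib 3.10.9).

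All 35 members were named, and of the pathway lists the called genes. The members, lists and comparisons were chosen with earlier results of these data known. Where labels do not say that samples came from separate cultures or animals, p-values measure the spread between these samples. No single value was given a permutation test, since 3 samples against 3 cannot reach a p under 0.1. The number of arrays limits the precision.

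The alternatives were arrays shifted to their 75th percentile, the authors' processed values, normexp background correction (offset 50) on median signals, a filter for probes detected on 3 or more arrays, outlier spots retained, trend and robust variance, the replicate number or the slide row as a block, averaged probes per gene, each sample left out, no fold threshold and a log2 fold change of 1 or more.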

Additional observations from a re-analysis of the deposited data

How the results depend on the processing

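Of 524 values of single members under 15 alternatives, 467 kept their direction and their side of the threshold. The 6 members with an E-box match stayed above 0 in all 90 of their values under the 15 alternatives. Much of this was fixed in advance. Their genotypes did not overlap, so leaving out a sample could not change the sign. The replicate block, the variance setting and the detection filter leave the fold change as it was. The 2 members called higher and 1 called lower became 0 and 0 with normexp on median signals, with the replicate block, with slide row blocked and with a log2 fold change of 1 or more. They became 4 higher with only probes detected on 3 or more arrays and 4 higher with trend and robust variance (Hif1a and Egln3 added, of which Egln3 passed the filter only through the B41KO arrays), and 3 higher and 5 lower with no fold threshold (Bnip3 added among the higher). They were 3 higher with the authors' values (Egln3 added) and 3 higher with averaged probes per gene (Car9 added). Without 1 sample, 0 to 2 were called higher and 0 lower. Of the pathway lists, 5 genes were called higher and 8 lower. These became 3 higher with normexp, 0 and 0 with the replicate block, 0 and 2 with slide row blocked, 3 higher with averaged probes per gene, and 0 and 4 with a log2 fold change of 1 or more. Without 1 sample they were 2 to 3 higher and 3 to 6 lower. Over all genes, 1279 were called, 21 with the replicate block, 200 with slide row blocked, 791 with normexp, 325 with a log2 fold change of 1 or more and 367 to 701 without 1 sample.

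The labels do not say that the replicate numbers pair the samples. Deviations of same-numbered samples correlated by 0.131, -0.00659 and 0.166 over probes, and those of differently numbered samples by -0.194 to 0.0841. All these values were small, but 0.131 and 0.166 were the highest, so whether the numbers pair the samples was not settled. With the replicate block the values of Pfkm (0.64), Slc16a1 (0.54) and Slc2a3 (-0.76) stayed and their adjusted p-values were 0.0785, 0.0882 and 0.0829. With slide row blocked, a fit that compares the 1 B41KO array in row 1 with the 3 B41HET arrays there, they were 0.73, 0.55 and -0.57. With normexp they were 0.49, 0.34 and -0.49, each with an adjusted p under the threshold and a fold short of it.

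Changes of sign were seen in 9 genes, whose reported values lay within 0.11 of 0. They were Pfkp (-0.0097) and Slc16a3 (-0.0045) with the 75th percentile shift, Ldhb (0.042) with the authors' values and Pgk1 (-0.0060) with normexp. With slide row blocked they were Pfkp (-0.13), Aldoc (-0.062), Slc2a1 (0.084) and Vegfa (-0.053), and with the mean over probes Hk1 (0.032), Pfkp (-0.25), Aldoc (-0.0089), Gapdh (-0.079) and Vegfa (-0.39). Without 1 sample, Pfkp lay between -0.063 and 0.080, Aldoc between -0.039 and 0.16, Pgk1 between -0.016 and 0.13, Slc2a1 between -0.12 and 0.043, Slc16a3 between -0.039 and 0.11, and Vegfa between -0.035 and 0.043. The cause was not tested.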
